A study of Mus musculus with 2 samples.

Results

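The genes described here encode secreted factors that recruit or raise neutrophils, and they are 7 of the 32285 genes in the deposited matrices: the CXC chemokines Cxcl1, Cxcl2, Cxcl3, Cxcl5, Cxcl15 and Cxcl17 and the cytokine gene Csf3. They were taken by symbol, and each symbol matched 1 gene. The measurements are droplet 3′ single-cell RNA counts of mouse lung in 2 libraries, 1 from wild-type C57B6/J mice (WT) and 1 labelled Plaur KO, with strain given as C57B6/J for both. The study used 8 mice per genotype, primed on days 0 and 7 with ovalbumin plus lipopolysaccharide and exposed to ovalbumin aerosol on day 14, so both libraries come from challenged lungs and none from untreated ones. Cells were sorted as negative for CD45.2, a gate that removes most blood-derived cells. The labels do not say how many mice a library held, and they name the cell type as lysate of total lung. Plaur encodes uPAR, the receptor of urokinase.

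Chemokines with the ELR motif, in mouse the products of Cxcl1, Cxcl2, Cxcl3, Cxcl5 and Cxcl15, draw neutrophils out of the blood, chiefly through the receptor CXCR2. Csf3 encodes G-CSF, which drives the bone marrow to make and release neutrophils through the receptor CSF3R. Epithelium, fibroblasts and resident macrophages make several of these factors when IL-1, IL-17, TNF or endotoxin reaches them. Their mRNAs are known to be short-lived because AU-rich stretches in the 3′ untranslated region recruit decay factors. Cxcl15, also called lungkine, is a lung epithelial chemokine. Cxcl17 is a mucosal factor whose chemotactic activity and receptor are debated.

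The 2 libraries held 57028943 UMIs over 11776 barcodes (WT) and 51529241 UMIs over 9771 barcodes (labelled Plaur KO), and 10247 and 8972 cells were kept, with medians of 4843 and 5543 UMIs per cell. Between them 30 barcodes were shared. Plaur itself was counted at 46.9 CPM (UMIs of the gene per 1000000 UMIs) in the WT library and at 33.1 CPM in the library labelled Plaur KO. The labels do not name the deleted exons, and a 3′ tag outside them checks nothing, so the genotype was not checked by these counts. AT2-like cells (alveolar type 2, the surfactant-making cells) formed 36.6% of the WT and 64.4% of the KO-labelled cells. With 1 library per genotype, no difference below has a replicate check and no test was run. Intervals are 95% and cover counting error only.

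Among the 7 genes, 5 lie close together on chromosome 5 of the mouse genome (GRCm38, GENCODE M21), all on the plus strand: Cxcl5 (chr5:90759360-90761624), Cxcl3 (chr5:90786103-90789600), Cxcl15 (chr5:90794534-90803067), Cxcl1 (chr5:90891241-90893115) and Cxcl2 (chr5:90903871-90905938). Cxcl17 lies on the minus strand of chromosome 7 (chr7:25400053-25412886), where 4732471J01Rik overlaps it on the other strand. Csf3 lies on chromosome 11 (chr11:98701263-98703629, plus strand). Upstream sequence from RefSeq (build GRCm38.p6) was found for 4 of the 7. The 120 bases before the RefSeq start are shown because Cxcl1, Cxcl2 and Cxcl3 share a stretch that Cxcl15 lacked. Capitals mark that stretch, GGGAATTTCCC, the longest one held by all 3 within the 250 bases before the start. It matches a form of the NF-kB site and was then searched on both strands of the 300 bases around each start.
Cxcl1, chr5:90891125-90891244: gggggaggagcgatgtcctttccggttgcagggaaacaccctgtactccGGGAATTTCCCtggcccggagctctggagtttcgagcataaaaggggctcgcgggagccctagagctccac
Cxcl2, chr5:90903779-90903898: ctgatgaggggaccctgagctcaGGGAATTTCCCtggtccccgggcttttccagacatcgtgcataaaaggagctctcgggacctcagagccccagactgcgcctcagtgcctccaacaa
Cxcl3, chr5:90785981-90786100: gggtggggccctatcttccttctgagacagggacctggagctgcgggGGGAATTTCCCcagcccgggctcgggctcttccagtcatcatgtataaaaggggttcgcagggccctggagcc
Cxcl15, chr5:90794414-90794533: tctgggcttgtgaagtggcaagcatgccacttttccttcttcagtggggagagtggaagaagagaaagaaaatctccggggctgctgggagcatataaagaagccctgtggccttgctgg

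The stretch started 71 bases before the start of Cxcl1, 97 before that of Cxcl2 and 73 before that of Cxcl3, once in each and on the forward strand. Since it was found by comparing these 3, its presence in them is by choice. It was present in 14 of 32851 RefSeq promoter windows of the same length (0.0426%). A match describes the letters and not binding. At the other end of the transcripts, the pentamer ATTTA occurred 7 times in the 3′ untranslated region of Cxcl1, 11 times in Cxcl2, 5 times each in Cxcl3 and Cxcl5, 6 times in Csf3, 2 times in Cxcl15 and not at all in Cxcl17, against a median of 1 over 21005 genes. Per 100 bases the density was 1.18 in Cxcl1, 0.897 in Csf3, 0.775 in Cxcl3, 0.736 in Cxcl2 and 0.450 in Cxcl5, while Cxcl15 (0.126) lay near the middle of all genes, 49.3% of which were as dense. Cxcl2 and Cxcl3 share a stretch of 110 identical bases in their transcripts, longer than the 90-base read. In the last 500 bases, where 3′ tags mostly fall, their longest shared stretch was 16 bases.

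The 7 genes differed in the cell classes where they were highest, though some shared them. Levels are given for 17 cell classes with at least 20 cells in both libraries, 13 named by markers that exclude the 7 genes and 4 kept by cluster number. These are 3′ tag counts, 1 UMI per captured transcript whatever the gene's length. Cxcl15 and Cxcl17 were epithelial, and Cxcl1 and Csf3 were highest in fibroblasts. Cxcl2 was highest in neutrophil-like cells, Cxcl3 in macrophage-like, neutrophil-like and AT2-like cells, and Cxcl5 in airway secretory-like cells and fibroblasts. The plot of levels by class shows these 7 profiles.

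**Figure D1:**
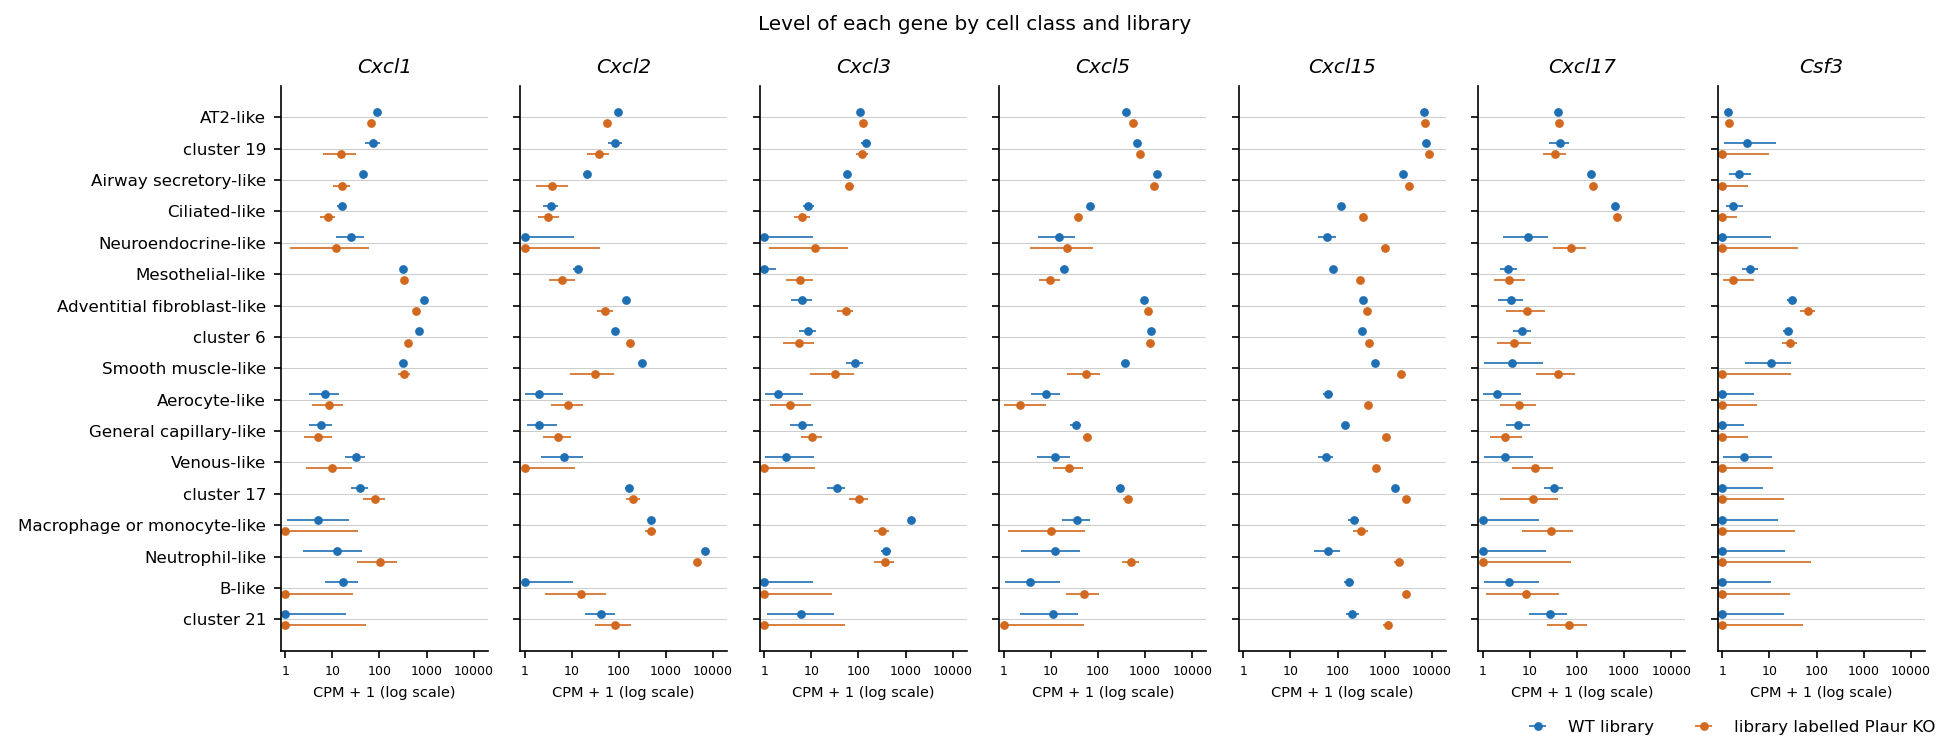
Level of each gene (CPM + 1, log axis) in 17 cell classes, with blue points for the WT library, orange points for the library labelled Plaur KO and bars for 95% counting intervals. Cxcl15 peaked in AT2-like cells and cluster 19, Cxcl17 in ciliated-like cells, Cxcl2 in neutrophil-like cells, and Csf3 was at 0 in most classes of the library labelled Plaur KO.

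Cxcl1, a main CXCR2 ligand of stromal cells, stood at 873 CPM in WT and 610.4 CPM in KO-labelled adventitial fibroblast-like cells, which surround vessels and airways. Cluster 6, a fibroblast cluster that mixes adventitial markers with alveolar fibroblast markers and is led by genes such as Mgp, Timp1 and Saa3, gave 688 and 406 CPM. The ranges of these 2 classes overlapped. Smooth muscle-like cells (322 and 337 CPM) and mesothelial-like cells, the lining of the pleura (320.5 and 336 CPM), came next and could not be ordered against each other. AT2-like cells followed at 88.2 and 64.7 CPM. General capillary-like endothelium gave 4.71 and 4.04 CPM. A UMI of Cxcl1 was seen in 53.3% of WT and 33.6% of KO-labelled adventitial fibroblast-like cells, in 37.6% and 24.0% of cluster 6 and in 36.1% and 42.4% of mesothelial-like cells. Thinned to 1000 UMIs per cell, these shares were 33.1% and 20%, 25% and 16.6%, and 18.4% and 21.2%. In general capillary-like cells, which should make little of it and had median depths of 1329 and 1340 UMIs, the share was 0.704% and 0.459%.

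Cxcl2, made fast by activated myeloid cells, was counted at 6658 CPM in WT and 4617 CPM in KO-labelled neutrophil-like cells. These cells had passed the CD45.2-negative gate and were few, 144 and 25. Macrophage or monocyte-like cells gave 476 and 471 CPM, below neutrophils without overlap and above all other classes. In the 6 classes next in order, from cluster 17, a mixed cluster with lymphatic and immune genes, down to AT2-like cells and cluster 21, each overlapped its neighbour. Cxcl2 was seen in 77.1% and 84.0% of neutrophil-like cells and in 0.156% and 0.344% of general capillary-like cells. AT2-like cells stood at 93.5 and 55.8 CPM, with a UMI in 11.3% and 8.62% of cells. Because they are numerous, AT2-like cells still held 51.1% (WT) and 77.6% (KO-labelled) of all Cxcl2 UMIs, against 25.9% and 8.61% in neutrophil-like cells.

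Cxcl3, the close relative of Cxcl2, had its top value in WT macrophage or monocyte-like cells (1319 CPM, against 314 CPM in the KO-labelled library). Of those 335 WT UMIs, 102 came from 1 cell of 46, and the class overlapped neutrophil-like cells (390.3 and 359.7 CPM). Cluster 19, which carries AT2 and club cell genes together, gave 146 and 118 CPM and AT2-like cells 106 and 125 CPM, with overlapping ranges. In contrast to Cxcl1, it was low in fibroblasts: cluster 6 had 7.41 and 4.54 CPM. AT2-like cells held 76.1% and 93.7% of all Cxcl3 UMIs. Over the 34 profiles (17 classes in 2 libraries) the correlation of log2(CPM + 10) was 0.74 between Cxcl2 and Cxcl3 and 0.01 between Cxcl1 and Cxcl3. These correlations describe profiles that share libraries.

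Cxcl5, known as an epithelial CXCR2 ligand, had an order with little overlap at the top. Airway secretory-like cells, the club and mucous cells of the airways, gave 1785 CPM in WT and 1511 CPM in the KO-labelled library. Cluster 6 followed at 1359 and 1300.4 CPM, adventitial fibroblast-like cells at 952 and 1126 CPM, cluster 19 at 688 and 764 CPM and AT2-like cells at 387 and 541 CPM. None of these 5 overlapped its neighbour, although each rests on 2 libraries. In airway secretory-like cells 73.7% and 76.9% held a UMI (47.3% and 48.4% after thinning). In cluster 6 it was 29.2% and 24.0%, with 16.4 and 17.5 UMIs per positive cell. So the fibroblast level came from a minority of strongly positive cells, whereas most airway secretory-like cells were positive. General capillary-like cells had a UMI in 1.17% and 1.38%.

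Cxcl15 was found in nearly all AT2-like cells, at 6895 and 7272 CPM, with a UMI in 98.9% and 99.7% of them. Cluster 19 stood at 7524 and 8761 CPM. Airway secretory-like cells stood at 2450.0 and 3253 CPM. AT2-like cells held 90.7% and 94.7% of all its UMIs. Across the classes its level lay close to a fixed ratio to Sftpc, the surfactant gene that marks AT2 cells. In AT2-like cells there were 44.7 and 43.7 Cxcl15 UMIs per 1000 Sftpc UMIs, and in the 15 classes other than AT2-like and airway secretory-like cells the medians were 46.0 (range 24.6 to 120, WT) and 40.3 (28.4 to 68.2, KO-labelled). The WT maximum, in neuroendocrine-like cells, rests on 22 Cxcl15 and 183 Sftpc UMIs. Airway secretory-like cells stood apart with 306 and 484 per 1000. Outside AT2-like, cluster 19 and airway secretory-like cells, a Cxcl15 count thus cannot be told apart from RNA that came with Sftpc.

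**Figure D2:**
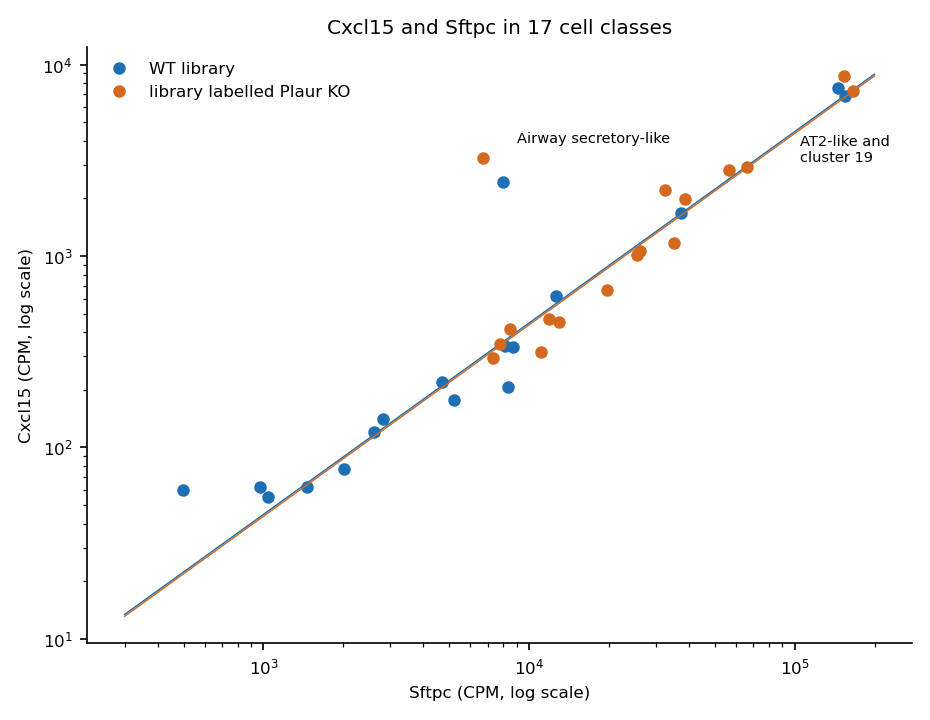
Cxcl15 level against Sftpc level (both CPM, log axes) in 17 cell classes, with blue for the WT library and orange for the library labelled Plaur KO; the lines, which nearly coincide, mark the ratio found in AT2-like cells (44.7 and 43.7 Cxcl15 UMIs per 1000 Sftpc UMIs). Most classes lie along the lines, and airway secretory-like cells lie above them at 306 and 484 per 1000.

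Cxcl17 marked ciliated-like cells at 647 and 694 CPM, with a UMI in 87.9% and 86.6% of cells. Airway secretory-like cells stood below at 201 and 216 CPM without overlap. AT2-like cells gave 37.8 and 41.4 CPM. Ciliated-like cells held 67.7% and 57.1% of all its UMIs and AT2-like cells 16.6% and 34.4%. In fibroblast, capillary and mesothelial-like cells it was low, for example 2.44 and 2.66 CPM in mesothelial-like cells. Gpr35, an orphan receptor once proposed for CXCL17, was detected at 4.7 and 4.1 CPM in ciliated-like cells.

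Csf3 was rare, with 164 UMIs in the whole WT library and 77 in the KO-labelled one. It was found in 58 and 17 cells. Cluster 6 and adventitial fibroblast-like cells together held most of them: cluster 6 had 39.0% and 37.7% and adventitial fibroblast-like cells 37.8% and 42.9%. In cluster 6 it stood at 23.7 and 26.3 CPM, in 3.26% and 2.63% of cells. Adventitial fibroblast-like cells gave 29.9 and 64.0 CPM, but 32 of the 33 KO-labelled UMIs came from a single cell and 26 of the 62 WT UMIs from another. No UMI was counted in neutrophil-like, macrophage or monocyte-like, B-like or capillary cells. The floor of 3 UMIs corresponds to 16.97 and 59.96 CPM in neutrophil-like cells, so a level like that of cluster 6 would not have been detectable in the KO-labelled neutrophils.

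The receptors differed in how widely they were found. Cxcr2, the neutrophil receptor, had 242 and 53 UMIs in neutrophil-like cells (1369 and 1059 CPM), and in no other class did it reach 20 UMIs over both libraries. The same held for Csf3r, the G-CSF receptor, at 2432 and 1279 CPM. Cxcr1 did not reach that number in any class. Ackr1, a decoy receptor that carries chemokines across venules, had 261 and 72.8 CPM in venous-like cells. Sdc4, a heparan sulfate proteoglycan that binds chemokines, was broad, at 1002 and 1154 CPM in mesothelial-like and 772 and 809 CPM in AT2-like cells.

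The genes whose profile over the 34 class and library profiles was most like each member were few and differed between members. For Cxcl1 these were Col6a2, Fzd2 and Kirrel (Pearson r = 0.91, 0.90 and 0.90), and for Csf3 Srpx, Abca8a and Kcne4 (0.97, 0.96 and 0.96). Cxcl2 came nearest to Cd44, Glipr2 and Smim3 (0.90, 0.88 and 0.88), and Cxcl3 to Gk, Pfkfb4 and Gsap (0.84, 0.80 and 0.79). Cxcl5 came nearest to Col23a1, Lcn2 and Ptges (0.82, 0.79 and 0.76). For Cxcl15 they were the surfactant genes Sftpd and Sftpa1 and Chil1 (0.99, 0.99 and 0.97), and for Cxcl17 Tspan1, Sec14l3 and Rnf128 (0.91, 0.91 and 0.89). Each was picked as the highest of 12985 genes, so the values describe the choice.

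AT2-like cells were not uniform for these genes. They fell into 5 clusters, formed without the 7 genes. In cluster 1, led by Retnla, Slc26a4 and Fstl4, Cxcl5 stood at 789 and 1176 CPM. In cluster 8, led among others by Il4i1, Ly6i, Cd83 and Tnfaip2, it stood at 1258 and 1218 CPM. The other 3 clusters lay between 142 and 244 CPM. Both libraries had the same 2 high clusters. Over the 10 cluster and library values the range was 8.87-fold for Cxcl5, 38.8-fold for Cxcl2, 10.6-fold for Cxcl3 and 5.76-fold for Cxcl1, against 1.87-fold for Cxcl15 and 2.02-fold for Cxcl17.

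Cxcl3 followed the same clusters at 231 and 263 CPM in cluster 1 and 328 and 339 CPM in cluster 8, with 32.0 to 61.9 CPM in the rest. Cxcl2 reached 193 and 103 CPM in cluster 1 and 360.1 and 187 CPM in cluster 8, with 9.28 to 48.0 CPM in the rest. Clusters 1 and 8 made up 19.5% and 7.94% of WT AT2-like cells and 24.7% and 6.84% of KO-labelled ones. They held 43.1% and 30.1% of the Cxcl5 UMIs of WT AT2-like cells, and 60.2% and 17.9% of those in the KO-labelled library. Cxcl15 varied little, from 4919 to 9205 CPM.

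**Figure D3:**
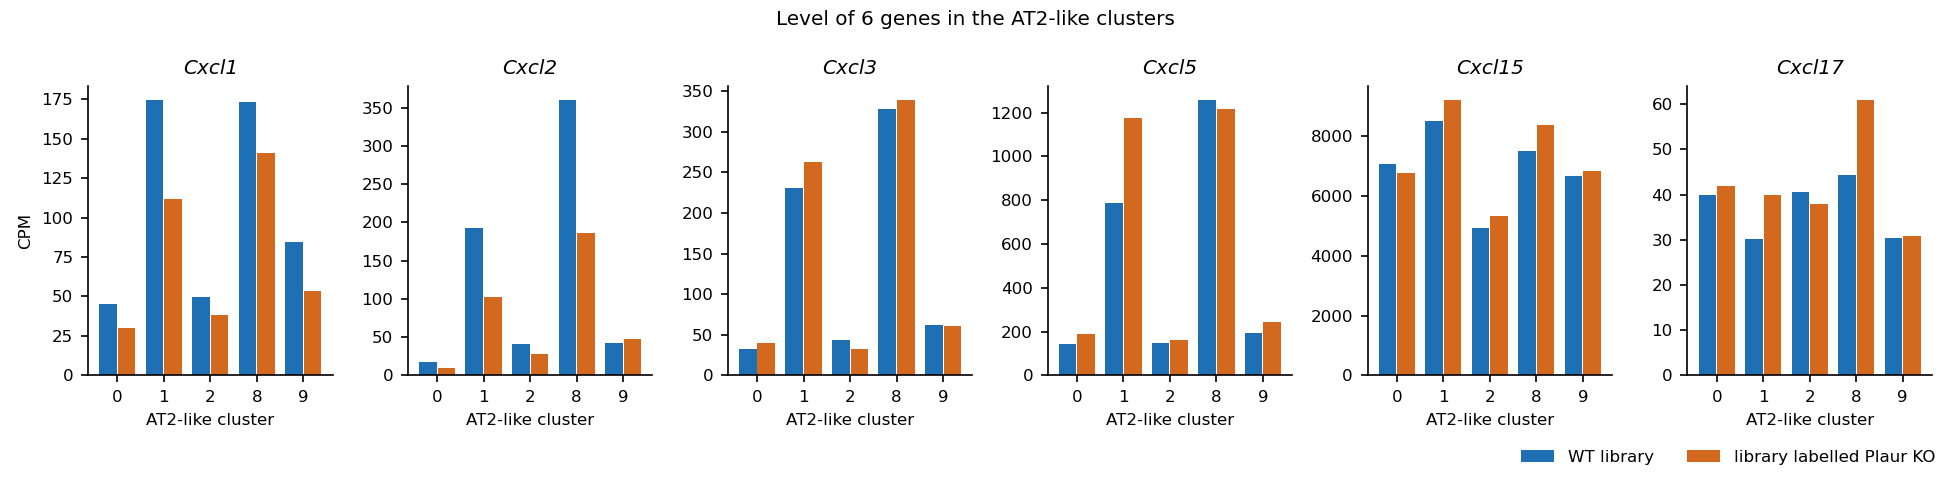
Level (CPM, linear axes from 0, scaled per gene) of 6 of the genes in the 5 AT2-like clusters, with blue bars for the WT library and orange bars for the library labelled Plaur KO. Cxcl1, Cxcl2, Cxcl3 and Cxcl5 are highest in clusters 1 and 8, while Cxcl15 lies between 4919 and 9205 CPM everywhere.

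The chemokine UMIs were also concentrated in few AT2-like cells. The top 10% of cells held 84.5% of Cxcl5 UMIs in WT and 76.7% in the KO-labelled library, with single cells reaching 114 and 115 UMIs. For Cxcl15 the top 10% held 24.0% and 25.05%. Cells positive for 1 chemokine were more often positive for another: Cxcl3 was seen in 40.6% of WT AT2-like cells with Cxcl5 and in 8.48% of those without, and in 45.5% and 8.42% of KO-labelled ones. After thinning to 1000 UMIs these shares were 21.03% and 3.65% for WT and 20.4% and 4.12% for KO-labelled cells. Deeper cells show more of every gene, so thinning equalises that part. In fibroblast cluster 6 the partner of Cxcl5 was Cxcl1 (64.3% with against 26.7% without in WT, 62.2% against 11.9% in KO-labelled cells), while Cxcl3 was seen in 3.12% and 2.44% of its Cxcl5-positive cells.

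The 10 genes named next were most like Cxcl5 over the AT2-like clusters (r from 0.97 to 0.99 over 10 profiles). Cxcl3 was first of them. The others were Noxo1, Lcn2, Pigr, Clint1, Slco2a1, C3, Dpagt1, Nadk and Pik3c2a. Lcn2, which encodes the iron-scavenging protein lipocalin 2, stood at 5781 and 6409 CPM in cluster 1 and at 6892 and 7767 CPM in cluster 8, against 2056 to 3022 CPM in the rest. C3, the central complement component, stood at 644 and 862 CPM in cluster 1, at 978 and 1405 CPM in cluster 8 and at 241 to 407 CPM in the rest. Pigr, the transporter of IgA across epithelium, stood at 178 and 173 CPM in cluster 8 and at 21.8 to 35.7 CPM in clusters 0, 2 and 9.

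The libraries were compared class by class as the log2 ratio of the KO-labelled over the WT library, given where both held at least 20 UMIs together. A ratio was called when it reached 1 in either direction and its interval left out 0. In all, 68 ratios of the 7 genes could be formed in 17 classes, and 16 were called higher and 11 lower. Over all genes in the same classes 2.04% of ratios were called higher and 3.19% lower. Of the 16 called higher, 10 were Cxcl15 in classes where it moved with Sftpc. Several others rested on 1 cell. When the cell with most UMIs of the gene was left out in each library, 20 of the 27 calls stood, 10 of 17 without Cxcl15.

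**Figure D4:**
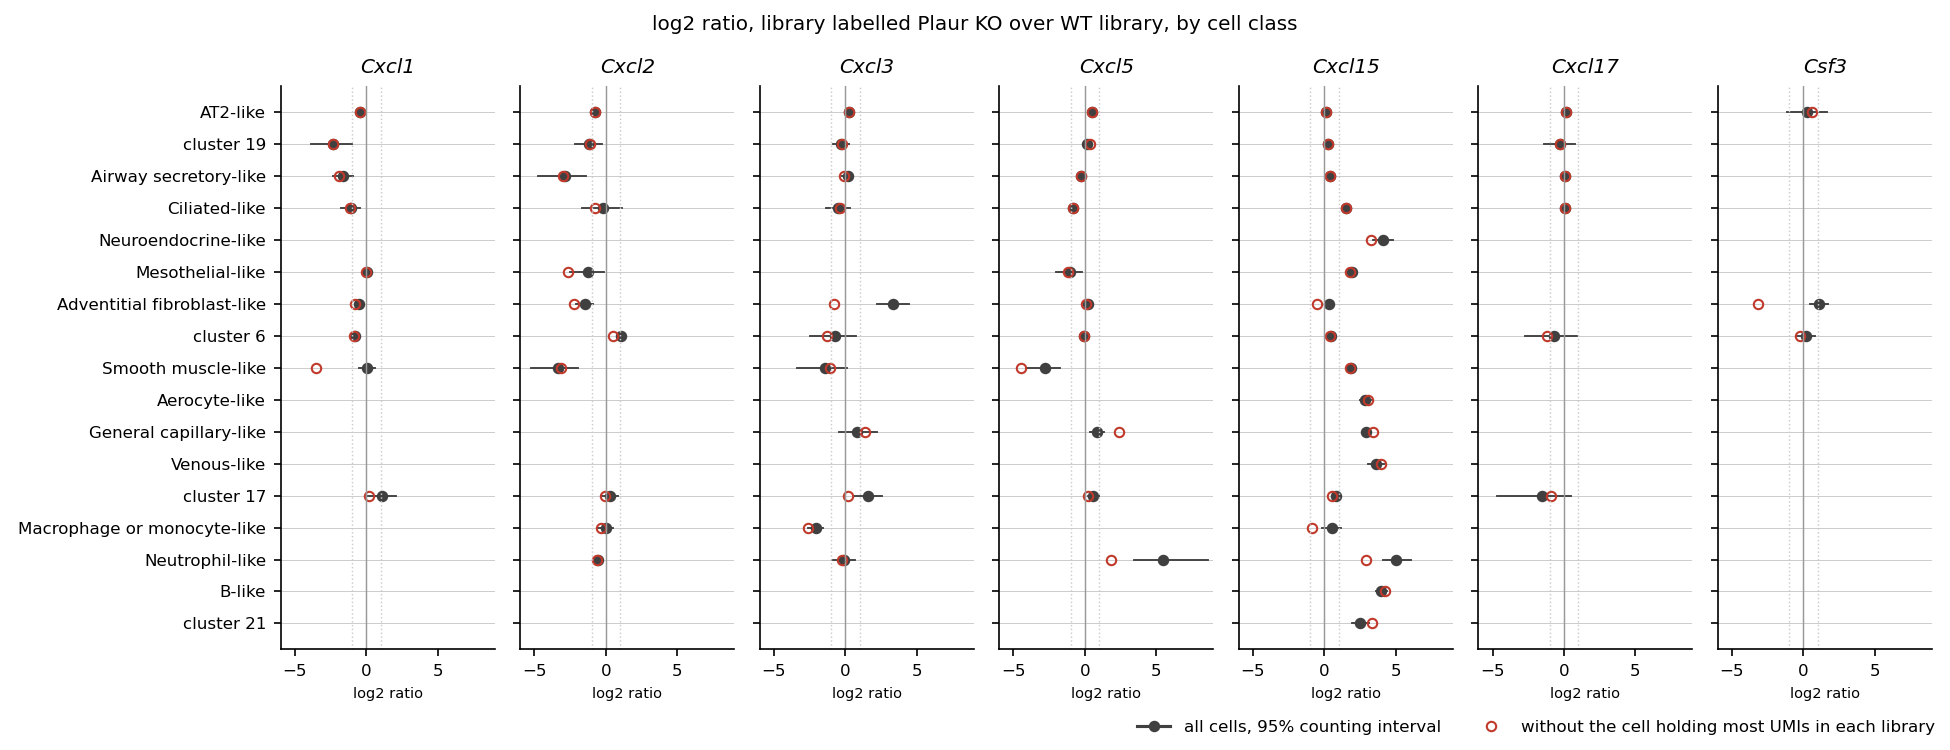
log2 ratio of the library labelled Plaur KO over the WT library for each gene and class with at least 20 UMIs (filled points, bars for 95% counting intervals) and the same ratio without the cell holding most UMIs in each library (open red circles); dotted lines mark -1 and 1. All 7 AT2-like points lie within the dotted lines, and the open circles leave the filled ones for Csf3 and Cxcl3 in adventitial fibroblast-like cells (-3.16 and -0.80 against 1.10 and 3.30).

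In AT2-like cells none of the 7 genes was called, where 0.442% of 13809 genes were higher and 2.76% lower. Cxcl1 and Cxcl2 were on one side of 0 and Cxcl3 and Cxcl5 on the other. Cxcl1 stood at 88.2 CPM in WT and 64.7 CPM in the KO-labelled library (log2 ratio -0.45, interval -0.53 to -0.36) and Cxcl2 at 93.5 and 55.8 CPM (-0.75, -0.83 to -0.66). Cxcl3 stood at 106 and 125 CPM (0.24, 0.17 to 0.31) and Cxcl5 at 387 and 541 CPM (0.48, 0.45 to 0.52). Cxcl15 gave 0.08, Cxcl17 0.13 and Csf3, on 8 and 14 UMIs, 0.22 (-1.13 to 1.68). The median of all genes in these cells was -0.10, and TMM scaling would move every AT2-like ratio by 0.12. By rank among 13809 genes, Cxcl2 lay at the 5.67th percentile and Cxcl5 at the 96.8th.

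These directions were not the same in every AT2-like cluster. Cxcl2 had ratios of -0.96, -0.90, -0.54 and -0.95 in clusters 0, 1, 2 and 8, and 0.18 in cluster 9 with an interval from -0.26 to 0.64. Cxcl1 was below 0 in all 5, from -0.67 to -0.30. Cxcl5 gave 0.57 in cluster 1, 0.40 in cluster 0 and -0.05 in cluster 8 (interval -0.12 to 0.02). Cxcl3 gave 0.33 in cluster 0 and -0.40 in cluster 2. Neutrophil genes were scarce in AT2-like cells of both libraries. S100a8, a neutrophil calprotectin gene, stood at 1.17 and 0.161 CPM there, and the 20 neutrophil markers together, Lcn2 and Slpi included, at 3789 and 4139 CPM. Of these 20 markers, 6 were at 0 in WT and 5 in the KO-labelled library, and of 8 with enough UMIs 1 was called higher and 4 lower. Scgb1a1, the secretoglobin of club cells, stood at 1309 and 263 CPM in AT2-like cells and was called lower. Of 15 rated adventitial fibroblast markers 9 were lower and none higher, with none at 0 in either library, while their summed level was 1332 and 1795 CPM. Of 7 rated mesothelial markers 4 were lower and none higher, with 257 and 208 CPM summed and 1 of 14 at 0 in each. These included Msln at 7.17 and 0.992 CPM, and Col1a2 stood at 2.09 and 0.563 CPM. The part of these transcripts in the Cxcl1 and Cxcl2 ratios was not tested.

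Airway secretory-like cells (319 and 91) had 2 of 6 rated genes called lower, where 6.10% of genes were lower and 0.333% higher. Cxcl1 stood at 44.7 and 14.7 CPM (-1.60, -2.33 to -0.94) and Cxcl2 at 20.05 and 2.81 CPM (-2.84, -4.75 to -1.42). The Cxcl2 value rests on 78 and 4 UMIs. Of the 20 neutrophil markers 5 had enough UMIs there and 1 was called lower, with summed levels of 1927 and 1970.5 CPM and 7 and 9 markers at 0. Of 17 adventitial fibroblast markers 7 had enough UMIs and 5 of them were called lower, with summed levels of 509 and 266 CPM and 0 and 8 markers at 0. Col1a2, a collagen gene of fibroblasts, had 24 and 0 UMIs. The part of these transcripts in the Cxcl1 and Cxcl2 ratios was not tested. Cxcl5, the abundant one there, gave -0.24 (-0.31 to -0.17), with the median of all genes at -0.28. TMM would move ratios in this class by 0.25, which takes Cxcl5 to 0.01. Cxcl15 gave 0.41. In cluster 19 Cxcl1 and Cxcl2 were also called lower (-2.32 and -1.17, from 31 and 6 and from 35 and 15 UMIs), where 2.67% of genes were lower and 1.14% higher. Without the top cells the Cxcl2 call of cluster 19 was lost (-1.08, interval -2.33 to 0.05).

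In ciliated-like cells 1.18% of genes were higher and 1.87% lower. Cxcl17, their own chemokine, gave 0.10 (0.03 to 0.17), a difference far below the call. Cxcl1 was called lower (14.7 and 7.05 CPM, -1.06, -1.75 to -0.41), and Cxcl5 stood at 67.4 and 37.4 CPM (-0.85). Beside them Scgb1a1 stood at 6258 and 3144 CPM. The 15 airway secretory markers together stood at 11139 and 7208 CPM, with 0 and 1 at 0 and 4 of 12 rated called lower. Of 8 rated neutrophil markers 3 were lower and 1 higher (695 and 719 CPM summed, 4 and 12 of 20 at 0), and Col1a2 was lower at 4.22 and 0.813 CPM. Their part in the Cxcl1 and Cxcl5 values was not tested. Cxcl15 was called higher (120 and 348 CPM), with Sftpc at 2617 and 7805 CPM.

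The fibroblast classes gave opposite values for Cxcl2. Cluster 6 was called higher for it, at 80.4 and 169 CPM (1.07, 0.78 to 1.36), where 1.29% of genes were higher and 1.21% lower. Of its 186 KO-labelled UMIs, 70 came from 1 cell, and without the top cells the ratio was 0.51 and no longer called. Adventitial fibroblast-like cells were called lower at 138 and 50.4 CPM (-1.46, -2.10 to -0.88), and without the top cells at -2.25. There 1.74% of genes were higher and 2.04% lower. The summed neutrophil markers were at 662 and 595 CPM in adventitial fibroblast-like cells, with 6 and 14 of 20 at 0, S100a8 at 7.23 CPM in WT and 0 in the KO-labelled library, and Scgb1a1 at 2544 and 157 CPM. Their part in the Cxcl2 ratio was not tested. Cxcl1 was not called in either, at -0.76 in cluster 6 (-0.91 to -0.61) and -0.52 in adventitial fibroblast-like cells (-0.69 to -0.34). Cxcl5 gave -0.06 and 0.24.

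Adventitial fibroblast-like cells also had Cxcl3 and Csf3 called higher, both through 1 cell. Cxcl3 stood at 5.30 and 52.3 CPM (3.30, 2.25 to 4.46), but 26 of 27 KO-labelled UMIs were in 1 cell and without it the ratio was -0.80 (-6.29 to 2.16). Csf3 stood at 29.9 and 64.0 CPM (1.10, 0.44 to 1.73), and without the top cell of each library it was -3.16 on 36 and 1 UMIs. In cluster 6, where Csf3 was spread over 25 and 9 cells, its ratio was 0.15 (-0.54 to 0.80). Over all kept cells Csf3 stood at 3.23 and 1.55 CPM (-1.06). Adventitial fibroblast-like cells were 4.56% and 1.29% of cells and cluster 6 was 7.49% and 3.81%, and the part of these shares in the pooled value was not tested.

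In mesothelial-like cells, where 1.31% of genes were higher and 4.69% lower, Cxcl1 gave 0.07 (-0.08 to 0.22) on 1574 and 505 UMIs. Cxcl2 and Cxcl5 were called lower there on few UMIs, 61 and 8 (-1.22) and 88 and 13 (-1.05). Both changed sign with stricter cell filters, to 1.51 and 0.045. Of 8 rated airway secretory markers 5 were lower there, with 2864 and 579 CPM summed and 1 and 5 of 15 at 0, and Scgb1a1 stood at 2367 and 154 CPM. Their part in the Cxcl2 and Cxcl5 ratios was not tested. Cxcl15 was called higher (77.4 and 295 CPM), with Sftpc at 2014 and 7332 CPM. Smooth muscle-like cells (89 and 36) had Cxcl2 at 306 and 30.6 CPM (-3.32) and Cxcl5 at 373 and 53.5 CPM (-2.80) called lower, where 3.84% of genes were higher and 4.06% lower. They rest on 96 and 4 and on 117 and 7 UMIs, and Cxcl5 changed sign under 2 other settings (2.02 and 3.004). Cxcl15 was called higher at 615 and 2211 CPM, beside Sftpc at 12686 and 32426 CPM. Cxcl1 gave 0.06 there, but 41 of its 44 KO-labelled UMIs were in 1 cell, and without the top cells it was -3.53.

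Neutrophil-like cells (144 and 25) gave -0.53 for Cxcl2 (-0.74 to -0.32), with the median of all genes at -0.33, and -0.12 for Cxcl3 (-0.95 to 0.65). Here 6.23% of genes were called higher and 9.49% lower. Cxcl5 was called higher, at 11.3 and 499.6 CPM, with 24 of 25 KO-labelled UMIs in 1 cell. Sdc4 gave the same values, 11.3 and 499.6 CPM, and Sftpc stood at 973 and 38732 CPM. Cxcl15 was called higher too, at 62.2 and 1979 CPM (4.99), and stayed so without the top cells (2.90). Of its 99 KO-labelled UMIs 80.8% were in 1 cell. The summed AT2 markers stood at 3564 and 57059 CPM in this class and the mesothelial markers at 22.6 and 2158 CPM. The part of these transcripts in the Cxcl5 and Cxcl15 ratios was not tested. In macrophage or monocyte-like cells (46 and 21) Cxcl3 was called lower (-2.07, -2.62 to -1.56), where 2.68% of genes were higher and 4.15% lower, and without the top cells it was -2.63. Cxcl2 gave -0.02 (-0.52 to 0.47). Cluster 17 had Cxcl1 and Cxcl3 called higher (1.06 and 1.61) on 38 and 39 UMIs, where 3.26% of genes were higher and 3.13% lower, and neither call stood without the top cells (0.18 and 0.19). Scgb1a1 stood at 62553 and 144 CPM in that cluster. All 9 rated airway secretory markers were lower there, with 65395 and 497 CPM summed and 1 and 10 of 15 at 0, while the summed AT2 markers stood at 56793 and 97977 CPM. S100a8 and S100a9 were at 98.3 and 182 CPM in WT and at 0 in the KO-labelled library. The part of these transcripts in the Cxcl1 and Cxcl3 ratios was not tested.

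In endothelium and the remaining small classes Cxcl15 carried the calls. It was called higher in general capillary-like cells (140 and 1059 CPM, where 3.50% of genes were higher and 1.66% lower), aerocyte-like cells (62.2 and 451 CPM, 2.26% and 1.30%) and venous-like cells (55.2 and 667 CPM, 2.68% and 3.19%). The same was found in neuroendocrine-like cells (59.6 and 1018 CPM, 2.75% and 2.84%), B-like cells (178 and 2808 CPM, 6.35% and 7.54%) and cluster 21, which holds T and NK genes (206 and 1173 CPM, 4.67% and 7.78%). Sftpc moved with it, at 2809 and 26249 CPM in general capillary-like and 5214 and 56405 CPM in B-like cells. Of the 14 AT2 markers none was at 0 in these 6 classes in either library, and 11 to 13 were called higher in each. Their summed level ranged from 1067 to 13166 CPM in WT and from 19042 to 86206 CPM in the KO-labelled library. In venous-like cells the airway secretory markers were also higher, at 1791 and 29928 CPM summed (4 of 6 rated higher, none lower). In the other classes of this group that sum was lower in the KO-labelled library. The part of these AT2 and airway secretory transcripts in the Cxcl15 ratios was not tested. Cxcl5 stood at 32.5 and 57.9 CPM in general capillary-like cells (0.83, 0.35 to 1.33), with 47 of 62 WT UMIs in 1 cell, and without the top cells the ratio was 2.41.

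Counted over all kept cells, Cxcl1 stood at 157 and 76.9 CPM (-1.03) and Csf3 at 3.23 and 1.55 CPM, the 2 genes of 7 called lower, where 17.0% of genes were lower and 0.469% higher. Cxcl2 stood at 89.6 and 53.9 CPM, Cxcl3 at 68.2 and 100.4 CPM, Cxcl5 at 465 and 505 CPM, Cxcl15 at 3722 and 5759 CPM and Cxcl17 at 111 and 90.2 CPM. These pooled values mix level and composition. Cxcl1, Cxcl2, Cxcl3 and Cxcl5 together came from AT2-like cells for 42.4% (WT) and 80.1% (KO-labelled) of UMIs, while AT2-like cells were 36.6% and 64.4% of cells. Airway secretory-like cells gave 18.8% and 6.19% of these UMIs from 3.11% and 1.01% of cells. Shares of sorted cells can also be set by the sort and by the number of cells loaded.

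Calls among the pathway genes around the chemokines differed from class to class. In AT2-like cells none of 16 rated receptors for inducing cytokines, none of 18 NF-kB family and feedback genes and none of 11 mRNA decay factors was called, with median ratios of -0.18, -0.07 and -0.07 beside -0.10 for all genes. Cd14, a co-receptor for endotoxin, stood at 356 and 538 CPM (0.60). Il1r1, the IL-1 receptor, stood at 19.7 and 12.7 CPM (-0.63). Of 19 rated genes induced with the chemokines by IL-17 and IL-1, 7 were lower (Ccl20, Cxcl10, Ccl2, Ccl7, S100a8, S100a9 and Il1b) and none higher, with a median of -0.47, where 2.76% of all genes were lower and 0.442% higher. S100a8, S100a9 and Il1b are also neutrophil markers. Ccl2 and Ccl7 were among the leading genes of adventitial fibroblast-like cells, Ccl20 of airway secretory-like cells, and Cxcl10 was highest in cluster 6. In AT2-like cells 9 of 15 rated adventitial fibroblast markers were lower and none higher (1332 and 1795 CPM summed). Of 12 rated airway secretory markers 7 were lower and 1 higher (2143 and 1021 CPM summed). The part of transcripts from other classes in these 7 calls was not tested. Among the co-induced genes Saa3 stood at 17.6 and 28.9 CPM and Steap4 at 87.5 and 136 CPM.

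Other chemokine-bearing classes had calls in these lists. In airway secretory-like cells, where 6.10% of all genes were lower, Il1r1 (9.51 and 3.51 CPM) was lower among 15 rated receptors, and Rela, Relb and Nfkbiz, of the NF-kB family and its cofactors, were lower among 15 NF-kB genes. Cxcl10, Ccl2 and Ccl7 were lower there among 10 co-induced genes. Of 7 rated adventitial fibroblast markers 5 were lower in this class and none higher (509 and 266 CPM summed). Il1r1 had 37 and 5 UMIs in this class and stood at 1464 and 909 CPM in fibroblast cluster 6. The part of fibroblast transcripts in the Il1r1, Cxcl10, Ccl2 and Ccl7 calls was not tested. In neutrophil-like cells 9.49% of all genes were lower and 6.23% higher. Tnfrsf1b was lower there among 10 receptors and Rel and Tnfaip3 among 11 NF-kB genes, with Cebpd higher. All 11 rated AT2 markers were higher in these cells (3564 and 57059 CPM summed), and their part in the Cebpd ratio was not tested. The decay factor list had Zc3h12a and Mapkapk2 lower of 8 there, and Ptgs2 was lower among 10 co-induced genes. In smooth muscle-like cells 4.06% of all genes were lower and 3.84% higher. Il1r1 was lower and Cd14 higher there among 6 receptors. Nfkb1 and Relb were lower among 12 NF-kB genes and Zfp36 among 7 decay factors. Of 13 co-induced genes 6 were lower there (Saa3, Csf2, Csf1, Ccl7, Ptgs2 and Mmp3) and Steap4 was higher. Of 14 AT2 markers 13 were higher in this class and none lower (20047 and 50302 CPM summed). AT2-like cells held Cd14 at 356 and 538 CPM and Steap4 at 87.5 and 136 CPM. The part of AT2 transcripts in the Cd14 and Steap4 ratios was not tested.

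Each fibroblast class had 1 of 15 rated co-induced genes called lower, against 7 of 19 in AT2-like cells. Those 7 include leading genes of other classes and neutrophil markers, and the difference was not tested. Cluster 6 had no call among 16 receptors for inducing cytokines, 17 NF-kB genes and 11 decay factors, with medians of -0.07, -0.40 and -0.35 beside -0.02 for all genes. Il1r1 stood at 1464 and 909 CPM (-0.69), Zfp36, an mRNA decay factor, at 663 and 393 CPM (-0.75) and Bcl3, an NF-kB cofactor, at 116 and 58.1 CPM, which missed the call. Of 15 rated co-induced genes Il6 was called lower there (400 and 151 CPM, -1.41), where 1.21% of all genes were lower and 1.29% higher. In adventitial fibroblast-like cells Il1r1 and Tlr2 were lower among 16 receptors, none of 16 NF-kB genes and none of 11 decay factors was called, and their medians were -0.33 and -0.24 beside -0.02, where 1.74% of all genes were higher and 2.04% lower. Of 15 rated co-induced genes Mmp3, a matrix metalloproteinase gene, was called higher there (478 and 959 CPM) and Cxcl10 lower. Other CXC chemokines that act on T cells through CXCR3 stood apart there: Cxcl10 at 1099 and 285 CPM (-1.95) and Cxcl9 at 189 and 54.3 CPM (-1.80) were called lower, whereas in cluster 6 Cxcl9 stood at 561 and 842 CPM (0.59) and was not called.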

How the data were processed

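Droplet 3′ single-cell RNA libraries of sorted mouse lung cells were analysed, 1 per genotype. The values deposited are counts: raw UMIs of each gene in each barcode, not normalized. They were made by the authors with Cell Ranger (versions 7.0.0 and 7.1.0) and genome mm10, per the submitters' processing notes. How barcodes were called and whether intronic reads were counted is not given in the sources used here.

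Barcodes were used if they had 500 or more genes and no more than 15% of UMIs from mitochondria (10842 WT, 9109 KO-labelled). Scrublet (scanpy 1.11.5, expected share 8%) marked 595 (5.49%) and 137 (1.50%) of them as doublets, which were left out. The low share in the second library means that doublets may remain there. Both libraries were clustered together on 2000 variable genes, 30 principal components and 15 neighbours (Leiden resolution 1, leidenalg 0.10.2), with the 7 genes left out of the clustering. A cluster took a class name, written "-like", when its 50 leading genes held 3 or more markers of that class, fewer of any rival, and its top 10 genes did not favour a rival. This named 21 of 26 clusters in 15 classes. A minimum of 20 cells per library left 13 named classes and 4 clusters known by number for comparison.

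UMIs were summed per class and library and divided by the class total (CPM). Levels have exact Poisson intervals, and ratios have exact conditional binomial intervals, all of 95% and for counting error only. Ratios needed 20 UMIs over both libraries, and a value of 0 was replaced by a floor of 3 UMIs. Shares of cells were also taken after thinning each cell to 1000 UMIs, leaving out shallower cells. Genes named as alike in pattern are the 3 with highest Pearson r of log2(CPM + 10) among genes with at least 200 UMIs (10 within AT2-like clusters for the most abundant gene that varied there). The related gene lists are named by at most the 2 highest and 2 lowest members of each list in a class, and those called are also named. Levels in the text are otherwise of the 7 genes. Positions are from GENCODE M21, which matched 32158 of 32285 gene identifiers, and upstream sequences are from RefSeq.

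The genes, lists and rules were chosen with earlier results of these data known. The alternative that leaves out the cell with most UMIs of a gene was chosen after seeing the data. Other alternatives were TMM scaling (edgeR 4.0.16, R 4.3.3), other filters, other resolutions, clustering the libraries apart, and means over cells. The call rule was tested on simulated data.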

Additional observations from a re-analysis of the deposited data

Results flagged for a closer look

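Cxcl2 stood apart between the 2 fibroblast groups because its ratios lay on opposite sides of 0. The log2 ratio of the KO-labelled over the WT library was -1.46 in adventitial fibroblast-like cells but 1.07 in cluster 6, a difference of 2.53. This difference was not tested, since each genotype has 1 library. Of the 186 KO-labelled Cxcl2 UMIs in cluster 6, 70 came from 1 cell, and without the top cell of each library the ratios were 0.51 and -2.25.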

How the results depend on the processing

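Over all alternatives 877 of 946 ratios kept their sign. This count includes 68 and 47 ratios under other UMI minimums, which leave the ratio unchanged and so cannot turn its sign. With thinned cells 52 of 66 kept their sign, with stricter filters 44 of 51 and without the top cell of each library 59 of 68. TMM scaling moved ratios by more than 0.1 in AT2-like cells (0.12), airway secretory-like cells (0.25), neutrophil-like cells (-0.26), cluster 17 (-0.11), cluster 19 (0.14) and cluster 21 (-0.14). With it AT2-like ratios became -0.32 for Cxcl1, -0.62 for Cxcl2, 0.36 for Cxcl3, 0.60 for Cxcl5 and 0.20 for Cxcl15, Cxcl5 in airway secretory-like cells 0.0098, Cxcl2 in neutrophil-like cells -0.78 and Cxcl15 in cluster 19 0.36. With the 50 most abundant genes out of the totals, Cxcl5 and Cxcl15 in AT2-like cells were 0.55 and 0.14, Cxcl5 in airway secretory-like cells -0.015 and Cxcl15 in cluster 19 0.36. With thinned cells the ratios were -0.48 for Cxcl2 and 0.056 for Cxcl15 in AT2-like cells, 1.76 for Csf3 in adventitial fibroblast-like cells, 0.34 for Cxcl5 in airway secretory-like cells, 0.18 for Cxcl17 in ciliated-like cells and 0.16, a change of sign, for Cxcl2 in mesothelial-like cells. As means over cells they were 0.064 for Cxcl15 in AT2-like cells, 2.03 for Csf3 in adventitial fibroblast-like cells, 0.042 for Cxcl5 in airway secretory-like cells, -0.082 for Cxcl2 in neutrophil-like cells and -0.074 for Cxcl1 in cluster 17. Marked doublets kept in gave 0.095 and 0.40 for Cxcl15 in AT2-like cells and cluster 19. Cxcl5 in airway secretory-like cells was -0.32 at resolution 0.5, -0.33 with libraries clustered apart and -0.31 with the 7 genes allowed to shape clusters. Signs turned for Cxcl5 in mesothelial-like cells at resolution 2 (0.21), for Cxcl2 and Cxcl5 there with stricter filters (1.51 and 0.045), for Cxcl5 in smooth muscle-like cells at resolution 0.5 (2.02) and with stricter filters (3.004), and for Cxcl3 in cluster 17 with libraries clustered apart (-0.32). Without the top cell of each library, Cxcl3 (-0.80) and Csf3 (-3.16) in adventitial fibroblast-like cells changed sign, Cxcl1 there was -0.83 and Cxcl3 in macrophage or monocyte-like cells -2.63. The cause of the other changes was not tested. No paired analysis was possible because each genotype has 1 library and the labels give only 1 shared number. Small classes limit what can be seen: neutrophil-like cells numbered 144 and 25, and macrophage or monocyte-like cells 46 and 21.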

Other observations

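Cxcl10, an interferon-induced chemokine outside the neutrophil group, had its highest level in cluster 6, at 4288 CPM in WT and 4775 CPM in the KO-labelled library. Aerocyte-like cells stood at 2031 and 1884 CPM and general capillary-like cells at 1095 and 1281 CPM, classes in which Cxcl1, Cxcl2 and Cxcl3 were low. Cxcl14 was also centred on cluster 6, at 1401 and 1536 CPM. Cxcl13, a B cell chemokine, stood at 122 and 2.66 CPM in mesothelial-like cells and at 42.4 and 128 CPM in adventitial fibroblast-like cells. Cxcl12, the ligand of CXCR4, had its highest level in general capillary-like cells (528 and 459 CPM). The levels of these genes were set side by side as 3′ tag counts and no difference was tested.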
